A study of Saccharomyces cerevisiae with 30 samples.

Results

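The 5′ part of the head of yeast 18S rRNA, U1145 to G1264 counted from the 5′ end of 18S, was compared between small ribosomal subunit particles probed with dimethyl sulfate (DMS). The stretch is 120 nucleotides long and includes helices 31 to 33. Its members were the A and C bases with an effective depth (reads that passed the authors' filters at a position) of at least 900 in all 30 libraries. They numbered 57 of the 59 A and C in the stretch, 33 A and 24 C, out of 787 A and C of 18S with that depth. The 2 bases left out were C1192 and C1190, with lowest depths of 799 and 831 reads. The members just inside the limit were A1189 and A1193, with lowest depths of 928 and 1030.

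Cells of Saccharomyces cerevisiae were grown in YPD, a rich medium, to mid-log phase. Pre-40S particles are precursors of the small subunit, and they were purified with TAP-tagged Rio2, a kinase that binds them. The cells were WT (n = 5), S15_YRR, a mutant of ribosomal protein S15 (n = 3), or Rio2_Δloop, in which Rio2 lacks a loop (n = 4). Mature 40S subunits (n = 3) were the fourth group, and every replicate, called biological by the submitters, had a library treated with 1% DMS at 30 °C for 5 min and an untreated library. The pre-40S groups therefore share the Rio2 bait; the labels do not say whether the tagged copy in Rio2_Δloop cells is the mutated one, nor how mature 40S was isolated.

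DMS methylates the pairing face of A and C where no base pair or protein shields it. In DMS-MaPseq the reverse transcriptase reads through the methylated base and leaves a mutation, so a higher mutation rate over the untreated library stands for a more exposed base. The head of the small subunit carries the decoding-side contacts of the P site, and helix 33 forms the beak. In yeast, the loop of helix 31 holds U1191, which is converted to a hypermodified base in steps that involve the snR35 guide RNA, the methyltransferase Emg1 and, last, Tsr3. Rio2 binds near the P-site face of the head in pre-40S particles, S15 (uS19) is a protein of the head, and the assembly factors Enp1 and Ltv1 occupy the beak region before they leave.

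The rRNA sequence, as listed in the deposited profiles, is shown whole so that the exposed bases can be placed, with capitals for the 7 members whose DMS signal was strong enough to test between particles. The shorter stretches hold the bases on which the results turn: A1147 and C1148, then U1191 in capitals, then A1217, A1219, A1226 and A1227, and then C1246.
U1145 to G1264: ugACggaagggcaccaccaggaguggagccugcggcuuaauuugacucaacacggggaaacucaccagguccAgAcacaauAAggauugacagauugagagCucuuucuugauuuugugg
U1145 to G1164: ugACggaagggcaccaccag
U1181 to A1204: uuaauuugacUcaacacggggaaa
G1213 to U1232: guccAgAcacaauAAggauu
A1234 to U1262: acagauugagagCucuuucuugauuuugu

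Median effective depth over the stretch ran from 3339 to 19195 reads across the 30 libraries, with the lowest in a mature 40S library. By their untreated profiles the replicates fell into 4 sets of libraries, each unnamed in the labels and not matching the particle groups. The largest, called set 1, was made up of all 3 S15_YRR replicates, replicates 2 and 3 of mature 40S, replicates 4 and 5 of WT and replicates 3 and 4 of Rio2_Δloop. Set 2 was made up of replicates 1 and 2 of Rio2_Δloop with replicates 2 and 3 of WT. WT replicate 1 and mature 40S replicate 1 each stood alone. The mean DMS minus untreated rate over all A and C was -0.397 percentage points in WT replicate 1. It was between 0.129 and 0.433 in the other 14 pairs. Several test results are therefore also given without the lone libraries, whereas group means and counts of means include them.

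Values are the DMS rate minus the untreated rate of the same replicate, in percentage points, divided by a library scale between 0.727 and 1.42. This quantity is called the scaled difference. The scale is the median ratio of mutation rates in the treated libraries over the bases tested between particles, untreated rate not subtracted. It thus does not even out the DMS minus untreated signal itself. Scales were 0.746 in WT replicate 1 and 0.727 in WT replicate 2, whose mean differences over all A and C were -0.397 and 0.129. Most of the 57 members had a small scaled difference. A mean above 0 was found for 27 members in WT, 45 in S15_YRR, 38 in mature 40S and 52 in Rio2_Δloop. The WT means include replicate 1, the pair with a negative mean difference over all A and C. The count was not made without that replicate, so it does not show that WT particles are less exposed. The 50 members outside the tested 7 had means between -0.594 and 0.838 in mature 40S, between -0.109 and 0.575 in Rio2_Δloop, between -0.320 and 1.01 in S15_YRR and between -0.717 and 0.611 in WT. The 5 highest members of every particle came from the tested 7, as the profile along the stretch shows.

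**Figure D1:**
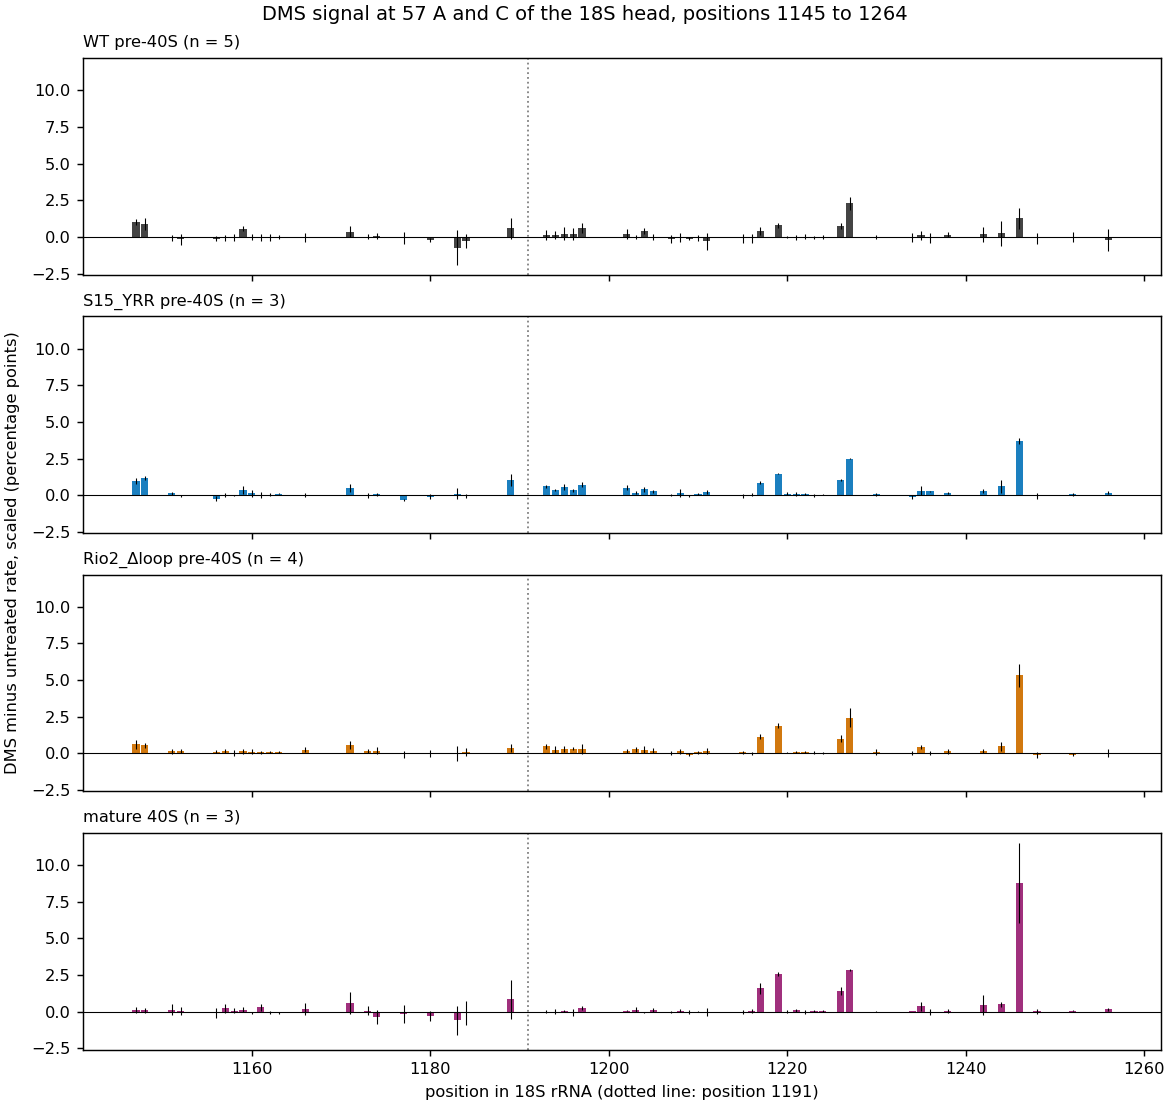
Mean scaled difference (percentage points, vertical axis) at each of the 57 members by position in 18S rRNA (horizontal axis), with 1 panel per particle and SD as thin bars; the dotted line marks U1191. C1246 stands at 1.28 in WT and 8.77 in mature 40S, A1147 and C1148 are near 0 in mature 40S, and A1227 is high in all 4 panels.

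A test of DMS against untreated counts in each particle listed the members with a detected DMS signal. A member that did not pass was not thereby shown to be unexposed. It was an edgeR quasi-likelihood fit with the replicate pair as a block, adjusted over the 787 A and C. In WT 11 members passed, all higher with DMS, where 16.4% of all A and C of 18S were called higher. In S15_YRR 17 passed (20.8% of all A and C), while 13 did in Rio2_Δloop (26.7%) and 6 in mature 40S (17.8%). Of the 57 members these counts are 19.3%, 29.8%, 22.8% and 10.5%, and whether these shares differ from the rest of 18S was not tested. Of the 61 G and U of the stretch, which DMS marks little in this assay, 0 passed in any particle by edgeR, with 9, 2, 1 and 1 at an unadjusted p under 0.05.

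A1217, A1219, A1226, A1227 and C1246 passed in all 4 particles. A1147 and C1148 passed in the 3 pre-40S particles, with log2 ratios of DMS over untreated rate from 1.24 to 1.84, and not in mature 40S. C1235 passed in S15_YRR (1.11), Rio2_Δloop (0.97) and mature 40S (1.35). The other calls lay between C1159 and C1205 and were made in pre-40S particles: A1193 (1.67 in S15_YRR and 0.93 in Rio2_Δloop), C1195 (1.35 and 0.91 in the same particles), A1204 in the 3 pre-40S particles (0.79 in WT, 1.19 in S15_YRR, 0.74 in Rio2_Δloop), C1159, A1189 and C1197 in WT and S15_YRR, A1194, A1202 and C1205 in S15_YRR, and A1171 and A1203 in Rio2_Δloop. The WT count was 7 without WT replicate 4 or without WT replicate 5 and 17 without the lone libraries. The S15_YRR count was 11 without S15_YRR replicate 3, and the Rio2_Δloop count was 7 without Rio2_Δloop replicate 4.

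Between particles, the DMS mutation counts of all 15 treated libraries were compared in 1 edgeR fit with the depth and the library scale as offset. It covered the 107 A and C of 18S whose mean DMS rate was at least 2 times the mean untreated rate, and p-values were adjusted over these 107. Only 7 members passed that filter on signal, and since it averages over all libraries a member could pass through the particles where it was high: A1217 did, with mean rates in WT of 1.30% with DMS and 0.883% without. A1147 and C1148 passed through the pre-40S particles. The counts over the 7 are therefore descriptions of these bases.

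C1246 had the widest range of means among the 7 tested bases. Its scaled differences were 0.186, 1.58, 1.29, 1.20 and 2.14 in WT replicates 1 to 5, and 3.70, 3.49 and 3.93 in S15_YRR. They were 5.97, 4.20, 5.61 and 5.52 in Rio2_Δloop and 5.60, 10.5 and 10.2 in mature 40S. WT was lowest with no overlap with any other particle, S15_YRR lay below all Rio2_Δloop and mature values, and the lowest mature replicate fell inside the Rio2_Δloop range. The means were 8.77 ± 2.75 in mature 40S (SD, n = 3), 5.32 ± 0.774 in Rio2_Δloop (n = 4), 3.71 ± 0.224 in S15_YRR (n = 3) and 1.28 ± 0.713 in WT (n = 5). Untreated rates at this base were 0.891% in mature 40S, 1.03% in Rio2_Δloop, 1.18% in S15_YRR and 0.911% in WT, and did not follow that order.

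A1219 and A1217 are separated by a single G in the stretch guccAgAcacaauAAggauu shown above. A1219 had scaled differences of 0.665, 1.10, 0.728, 0.831 and 0.680 in WT, 1.47, 1.44 and 1.49 in S15_YRR, 2.09, 1.96, 1.76 and 1.80 in Rio2_Δloop and 2.46, 2.74 and 2.47 in mature 40S. The 4 particles did not overlap at this base. A1217 had -0.0243, 0.658, 0.460, 0.431 and 0.568 in WT, 0.810, 0.966 and 0.806 in S15_YRR, 1.15, 1.02, 1.03 and 1.38 in Rio2_Δloop and 1.20, 1.92 and 1.62 in mature 40S. Here the scaled differences stood in the same order, and only Rio2_Δloop and mature 40S overlapped. The untreated rate at A1217 differed as well, with means of 0.341% in mature 40S, 0.547% in Rio2_Δloop, 0.950% in S15_YRR and 0.883% in WT. The mean DMS rates, not scaled, were 2.01%, 1.72%, 1.92% and 1.30%. In the treated libraries edgeR gave a log2 change of -0.01 for Rio2_Δloop against S15_YRR (adjusted p = 0.968). Mature 40S had 0.17 against S15_YRR (adjusted p = 0.715) and 0.18 against Rio2_Δloop (0.479). An order among these 3 particles at A1217 was thus not shown by the treated libraries.

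A1147 and C1148, neighbours at the 5′ edge of the stretch, ran the other way. A1147 had scaled differences of 0.811, 1.29, 0.891, 1.02 and 1.06 in WT, 0.791, 0.905 and 1.16 in S15_YRR, 0.979, 0.224, 0.639 and 0.669 in Rio2_Δloop and 0.340, 0.144 and -0.0865 in mature 40S. C1148 had 0.202, 0.964, 1.18, 1.16 and 0.960 in WT, 1.03, 1.21 and 1.30 in S15_YRR, 0.718, 0.346, 0.500 and 0.656 in Rio2_Δloop and -0.0766, 0.0884 and 0.234 in mature 40S. WT and S15_YRR were high and alike in range apart from the low C1148 value of WT replicate 1, Rio2_Δloop was in between, and mature 40S was near 0. The overlaps were between WT and S15_YRR at both bases, between Rio2_Δloop and each of the other particles at A1147, and at C1148 between WT replicate 1 and both Rio2_Δloop and mature 40S.

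A1226 and A1227 were exposed in every particle. A1227 had scaled differences of 1.88, 2.97, 2.04, 2.46 and 2.05 in WT, 2.50, 2.48 and 2.50 in S15_YRR, 2.79, 1.49, 2.65 and 2.81 in Rio2_Δloop and 2.82, 2.95 and 2.84 in mature 40S. Its particles overlapped except that mature 40S lay above S15_YRR and Rio2_Δloop. A1226 had means of 1.40 ± 0.280 in mature 40S (SD, n = 3), 1.01 ± 0.220 in Rio2_Δloop (n = 4), 1.03 ± 0.0756 in S15_YRR (n = 3) and 0.756 ± 0.205 in WT (n = 5), with the lowest mature value, 1.22, below the highest of Rio2_Δloop, 1.23.

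**Figure D2:**
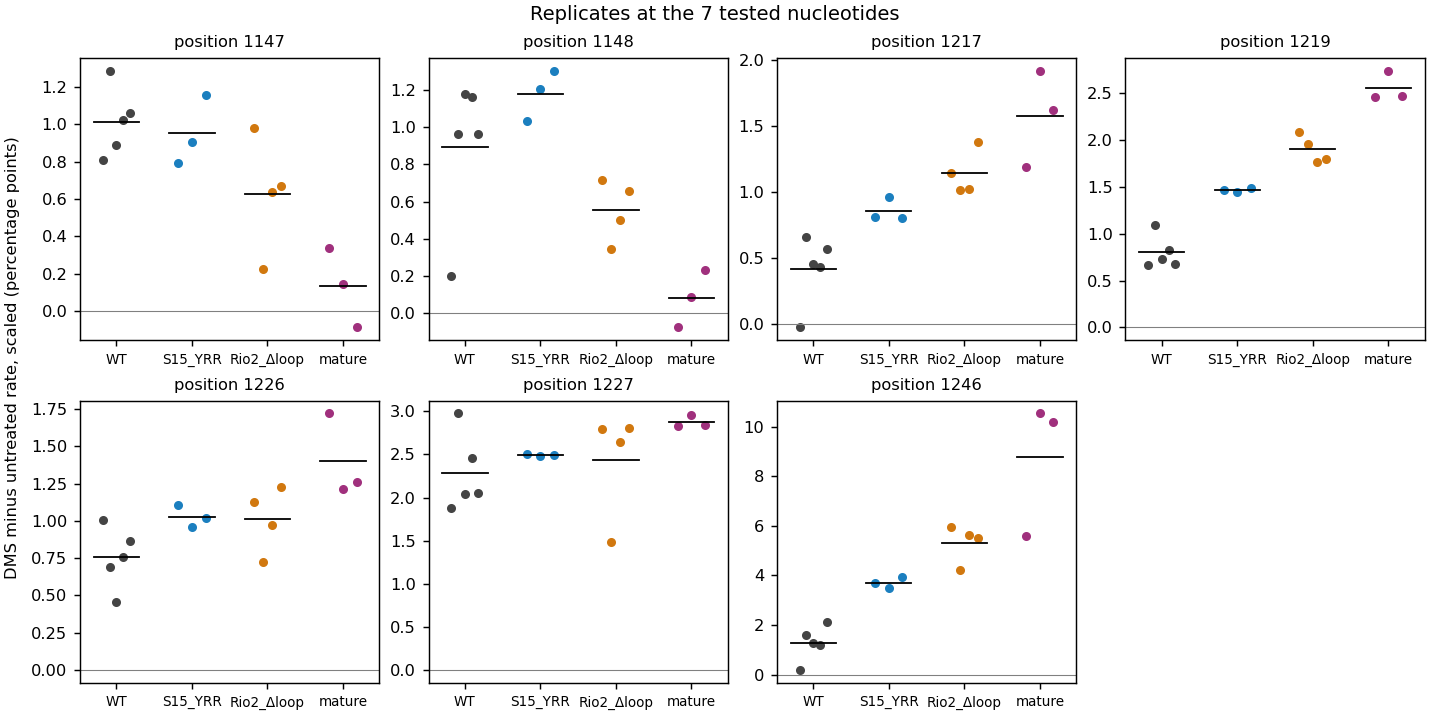
Scaled difference (percentage points, vertical axis) of each replicate at the 7 tested positions, with 1 panel per position and the particles along the horizontal axis; points are replicates and black lines are means. A1217, A1219 and C1246 have their lowest mean in WT and their highest in mature 40S, and A1147 and C1148 have their lowest in mature 40S.

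WT and S15_YRR particles were set against each other to see which bases change exposure with the S15 mutation. C1246 rose by a log2 change of 1.06 in the DMS mutation rate (SE 0.195; edgeR adjusted p = 0.00177), higher in all 3 S15_YRR replicates than in any WT replicate. It was the 1 call among the 7 members and also the 1 call in 18S, where 0.935% of the 107 bases were called. The log2 change was 0.48 at A1219 (SE 0.137; adjusted p = 0.110) and 0.35 at A1217 (SE 0.140; adjusted p = 0.469), with no overlap at either base, and A1147, C1148, A1226 and A1227 lay between -0.15 and 0.09. Scaled differences did not overlap at 3 of the 7 members and at 10.3% of the 107 bases. The C1246 call was lost without the filter on signal (adjusted p = 0.0906), with the untreated libraries as an interaction (0.135) and with limma on the scaled difference (0.363). A1219 passed as well within set 1 alone (0.59, adjusted p = 0.0281) and with the library set as a term (0.63, adjusted p = 0.00459), and without WT replicate 2 there were 2 calls among the members.

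Deletion of the Rio2 loop was examined in the same way against WT. Of the 7 members 3 passed, against 15% of the 107 bases. C1246 rose by 1.49 on the log2 scale (SE 0.181; edgeR adjusted p = 3.04e-06) and A1219 by 0.81 (SE 0.125; adjusted p = 3.69e-05), each with no overlap between the particles. C1148 fell by 0.70 (SE 0.176; adjusted p = 0.00731), with overlap through WT replicate 1. A1217 had 0.33 (adjusted p = 0.0976), A1147 -0.40 (adjusted p = 0.173), A1226 0.14 and A1227 -0.01. With the library set as a term A1217 (0.31, adjusted p = 0.0475) and A1226 (0.52, adjusted p = 0.0150) passed as well. Scaled differences did not overlap at 3 of the 7 members and at 11.2% of the 107 bases. The C1246 call held in all 24 alternatives, the A1219 call was lost without the filter on signal (adjusted p = 0.0669), and the C1148 call was lost in 6 of 24, among them set 1 alone (adjusted p = 0.0827) and the interaction with the untreated libraries (log2 change -0.11, adjusted p = 0.931).

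Mature 40S was also compared with WT pre-40S. Maturation and the way of isolation, not given for mature 40S, cannot be told apart in this comparison. Of the 7 members 5 passed, against 22.4% of the 107 bases. C1246 rose by 2.07 on the log2 scale (SE 0.191; edgeR adjusted p = 6.69e-09), A1219 by 1.11 (SE 0.135; adjusted p = 5.63e-07) and A1217 by 0.52 (SE 0.143; adjusted p = 0.00808). A1147 fell by 1.33 (SE 0.236; adjusted p = 8.96e-05) and C1148 by 0.92 (SE 0.205; adjusted p = 0.00107). A1226 had 0.39 (adjusted p = 0.303) and A1227 -0.02 (adjusted p = 0.959). Scaled differences did not overlap at 5 of the 7 members, among them A1226, and at 26.2% of the 107 bases. The A1217 call was lost in 4 of 23 alternatives. They were the fits without the filter on signal (adjusted p = 0.124), through which A1217 had entered by the particles where it was high, and without mature 40S replicate 2 (0.137). The others were the fits without a library scale (0.129) and with a scale from the 90th to 98th percentile of the difference (0.168). The C1148 call was lost in 1, the fit without a library scale (0.0662). The calls at A1147, A1219 and C1246 held in all 23.

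**Figure D3:**
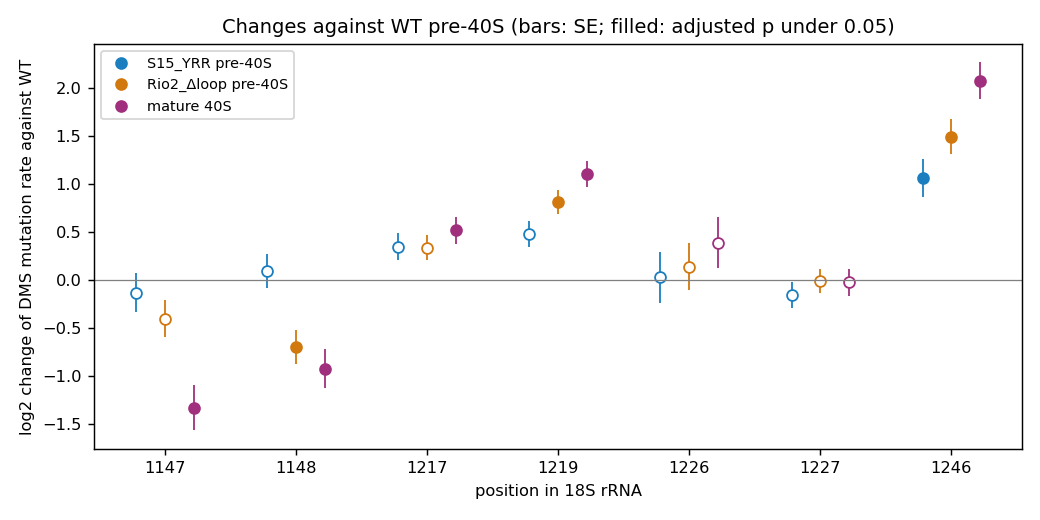
Log2 change of the DMS mutation rate against WT pre-40S (vertical axis) at the 7 tested positions (horizontal axis) in S15_YRR, Rio2_Δloop and mature 40S, with SE bars; filled points passed an edgeR adjusted p of 0.05. At C1246 the 3 changes are 1.06, 1.49 and 2.07, and at C1148 they are 0.09, -0.70 and -0.92. The 3 comparisons share the WT libraries.

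The 3 comparisons share the WT libraries, so the direct comparisons among the other particles bear on the order of the levels. Rio2_Δloop against S15_YRR gave 1 call among the 7 members, C1148, which was lower in Rio2_Δloop by a log2 change of -0.79 (SE 0.195; edgeR adjusted p = 0.0129), while 6.54% of the 107 bases were called. C1246 had 0.43 (SE 0.203; adjusted p = 0.247) and A1219 0.33 (SE 0.142; adjusted p = 0.175) there. Neither base was shown to differ between the mutant particles by this test, although the replicates did not overlap. C1246 passed without the lone libraries (0.44, adjusted p = 0.0420) but not with the library set as a term (0.42, adjusted p = 0.0896) or within set 1 alone (0.40, adjusted p = 0.289). Scaled differences did not overlap at 4 of the 7 members and at 17.8% of the 107 bases. The C1148 call was lost without S15_YRR replicate 3 (adjusted p = 0.0851) and in 6 other alternatives of the 22.

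Mature 40S against S15_YRR gave 4 calls of 7, against 18.7% of the 107 bases. A1147 fell by 1.19 (SE 0.256; edgeR adjusted p = 0.000980) and C1148 by 1.01 (SE 0.221; adjusted p = 0.00111) on the log2 scale. A1219 rose by 0.63 (SE 0.152; adjusted p = 0.00283) and C1246 by 1.01 (SE 0.215; adjusted p = 0.000980). The replicates did not overlap at any of the 7 members and at 26.2% of the 107 bases. With the interaction with the untreated libraries the calls at A1147 and A1219 (both adjusted p = 0.0796) and at C1246 (0.0577) were lost; A1219 was also lost without a library scale (0.578) and without the filter on signal (0.0933).

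Mature 40S against Rio2_Δloop gave 2 calls of 7, against 18.7% of the 107 bases: A1147 fell by 0.93 (SE 0.247; edgeR adjusted p = 0.00885) and C1246 rose by 0.58 (SE 0.198; adjusted p = 0.0399). C1148 had -0.22 (adjusted p = 0.520) and A1219 0.30 (adjusted p = 0.165), and scaled differences did not overlap at 3 of the 7 members and at 20.6% of the 107 bases. Without mature 40S replicate 2 the adjusted p was 0.0704 at A1147 and 0.244 at C1246, and without mature 40S replicate 3 it was 0.0642 and 0.236, with log2 changes of -0.79 and -0.77 at A1147 and 0.43 and 0.42 at C1246. C1246 was lost too without any 1 of the 4 Rio2_Δloop replicates (adjusted p from 0.0525 to 0.0931), with changes of 0.57 to 0.61. Without the lone libraries both passed, with -1.28 at A1147 (adjusted p = 0.000429) and 0.83 at C1246 (adjusted p = 0.000330). Within set 1 alone the changes were -1.04 at A1147 (adjusted p = 0.0121), 0.55 at A1219 (0.0132) and 0.87 at C1246 (0.00781), and -0.58 at C1148, which did not pass. With the library set as a term all 4 passed, C1148 with -0.58 (adjusted p = 0.0457), and C1148 also passed in the deposited signal by limma (adjusted p = 0.00434).

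The changes against WT were also computed within library sets. Within set 1, which leaves 2 WT, 3 S15_YRR, 2 Rio2_Δloop and 2 mature replicates, C1246 had log2 changes of 2.25 in mature 40S, 1.38 in Rio2_Δloop and 0.97 in S15_YRR, all past the threshold by edgeR (adjusted p = 1.13e-06, 0.00108 and 0.0172). A1147 and C1148 had -1.57 and -1.27 in mature 40S, both past it. Without the lone libraries A1226 passed in Rio2_Δloop (0.50, adjusted p = 0.0228) and mature 40S (0.54, adjusted p = 0.0411) against WT; the untreated rate at A1226 in WT replicate 1 was 0.914%, against 0.129% to 0.235% in the other WT replicates.

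A looser filter on signal (at least 1.5 times the untreated rate) brought 8 further members into the test, for 15 of 184 bases. Against WT it called 10 of the 15 in mature 40S, 6 in Rio2_Δloop and 1 in S15_YRR, where 17.9%, 10.3% and 0.543% of the 184 bases were called. Among the other particles it called 1 of the 15 for Rio2_Δloop against S15_YRR, 9 for mature 40S against S15_YRR and 7 for mature 40S against Rio2_Δloop, where 3.26%, 14.1% and 14.7% of the bases were called. The calls against WT at the added members were all lower in the DMS mutation rate, with the untreated rate not subtracted. A member could again pass the filter through the particles where its rate was high: A1193 had mean rates of 0.282% with DMS and 0.301% without in mature 40S but 1.04% and 0.337% in S15_YRR, and A1204 had 0.202% and 0.245% in mature 40S but 0.897% and 0.508% in WT. A lower value in mature 40S is thus favoured by the choice of these members, and the counts are descriptions. In Rio2_Δloop they were C1159 (log2 change -1.05, edgeR adjusted p = 0.00307), C1195 (-0.76, adjusted p = 0.0318) and C1197 (-0.81, adjusted p = 0.0195). In mature 40S they were A1193 (-1.76), C1195 (-2.82), C1197 (-1.93), A1202 (-1.22) and A1204 (-2.23), with adjusted p from 3.51e-06 to 0.000826.

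The 5 bases called in mature 40S lie 3′ of U1191, and their untreated rates were lower there too. C1195 had untreated rates of 0.103% ± 0.0776 in mature 40S (SD, n = 3), 0.348% ± 0.0852 in Rio2_Δloop (n = 4), 0.386% ± 0.0941 in S15_YRR (n = 3) and 0.751% ± 0.411 in WT (n = 5). Its scaled differences had means of 0.0588, 0.297, 0.539 and 0.222 in the same order. At C1195 Rio2_Δloop was thus called lower than WT in treated rate, but its mean scaled difference was not lower. The log2 ratio of DMS over untreated rate was 0.91 in Rio2_Δloop and 0.53 in WT at this base. C1159, in contrast, had closer untreated means (0.449%, 0.331%, 0.446% and 0.352% in that order), and its scaled differences were 0.702, 0.350, 0.577, 0.742 and 0.463 in WT against 0.276, -0.0294, 0.0392 and 0.282 in Rio2_Δloop, with no overlap. Its mature values were 0.277, 0.171 and -0.0707, and those of S15_YRR, 0.518, 0.0712 and 0.479, overlapped the others.

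U1191 itself is not a target of DMS, and its mutation rate without DMS is given as a check of the particles. The untreated rate was 2.05%, 2.45%, 2.92%, 2.65% and 4.26% in WT, 4.06%, 4.45% and 2.76% in S15_YRR, 14.5%, 10.3%, 17.3% and 12.3% in Rio2_Δloop and 76.8%, 81.8% and 83.3% in mature 40S. Mature 40S stood far apart, Rio2_Δloop lay between it and the other pre-40S particles without overlap, and WT and S15_YRR overlapped. An edgeR comparison of the 15 untreated libraries over 1667 positions of 18S, 118 of them in the stretch, gave a log2 change against WT of 5.12 in mature 40S (SE 0.403; adjusted p = 2.19e-06), 2.37 in Rio2_Δloop (SE 0.354; adjusted p = 0.0102) and 0.26 in S15_YRR (adjusted p = 0.730). The Rio2_Δloop call was lost in 6 of 14 alternatives, among them the fits without WT replicate 1, 2, 3 or 4 or without Rio2_Δloop replicate 1 (adjusted p from 0.0504 to 0.0938), with log2 changes from 2.15 to 2.42 there.

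In mature 40S the untreated profile was divided at U1191. All 45 tested positions 5′ of it, from U1145 on, had a higher untreated rate than in WT, with a median log2 change of 0.89. Of the 72 tested positions 3′ of it, up to G1264, 55 had a lower rate, with a median of -0.63. The medians were closer to 0 within set 1 alone (0.64 on the 5′ side and -0.29 on the 3′ side) and with the library set as a term (0.55 and -0.24). Over all of 18S the median was -0.02, with 810 positions higher and 857 lower. In S15_YRR 22 of the 45 and 32 of the 72 were higher (medians -0.01 and -0.08), and in Rio2_Δloop 23 of the 45 and 40 of the 72 (medians 0.01 and 0.05). Over the whole sides, neither mutant showed such a division in direction. Close to U1191, Rio2_Δloop did. Every tested position from C1173 to A1189 was higher than in WT (0.90 at A1189), and every one from A1193 to G1198 was lower (-0.94 at C1195). These bounds were picked from the values, and no position in them passed the test. In S15_YRR every tested position from A1193 to G1198 was lower as well (-1.37 at A1193, -1.06 at C1195), so the lower rates there were not particular to Rio2_Δloop. On the 5′ side A1189 was lower too in S15_YRR (-0.90).

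Single positions of this pattern passed the test in 4 of 118 cases, where 0.36% of 18S was called, and 56 of the 118 had an unadjusted p under 0.05. Besides U1191 they were C1174 (log2 change 1.83, SE 0.337; edgeR adjusted p = 0.0201), U1187 (1.53, SE 0.262; adjusted p = 0.0159) and C1197 (-2.21, SE 0.391; adjusted p = 0.0173). C1174 had untreated rates of 0.490% ± 0.117 in WT (SD, n = 5) and 1.41% ± 0.401 in mature 40S (n = 3), U1187 had 0.942% ± 0.220 and 2.50% ± 1.05, and C1197 had 1.20% ± 0.391 and 0.233% ± 0.0706. Mature 40S lay outside the WT range at all 3. Within set 1 alone 20 of the 118 positions were called, 13 of them 5′ of U1191 and higher, 6 of them 3′ and lower, against 3.06% of 18S (22 with the library set as a term, against 3.12%), and there 42 of the 45 positions were higher and 53 of the 72 were lower. C1174 was lost without WT replicate 3 or 4 or mature 40S replicate 1 or 3 (adjusted p from 0.0573 to 0.129), U1187 without mature 40S replicate 2 or 3 (0.0747 and 0.129) and C1197 without any 1 mature replicate (0.0576 to 0.133). In Rio2_Δloop U1191 was the 1 call, against 0.06% of 18S, and in S15_YRR edgeR gave 0 calls, against 0% of 18S, with 12 of the 118 positions at an unadjusted p under 0.05.

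**Figure D4:**
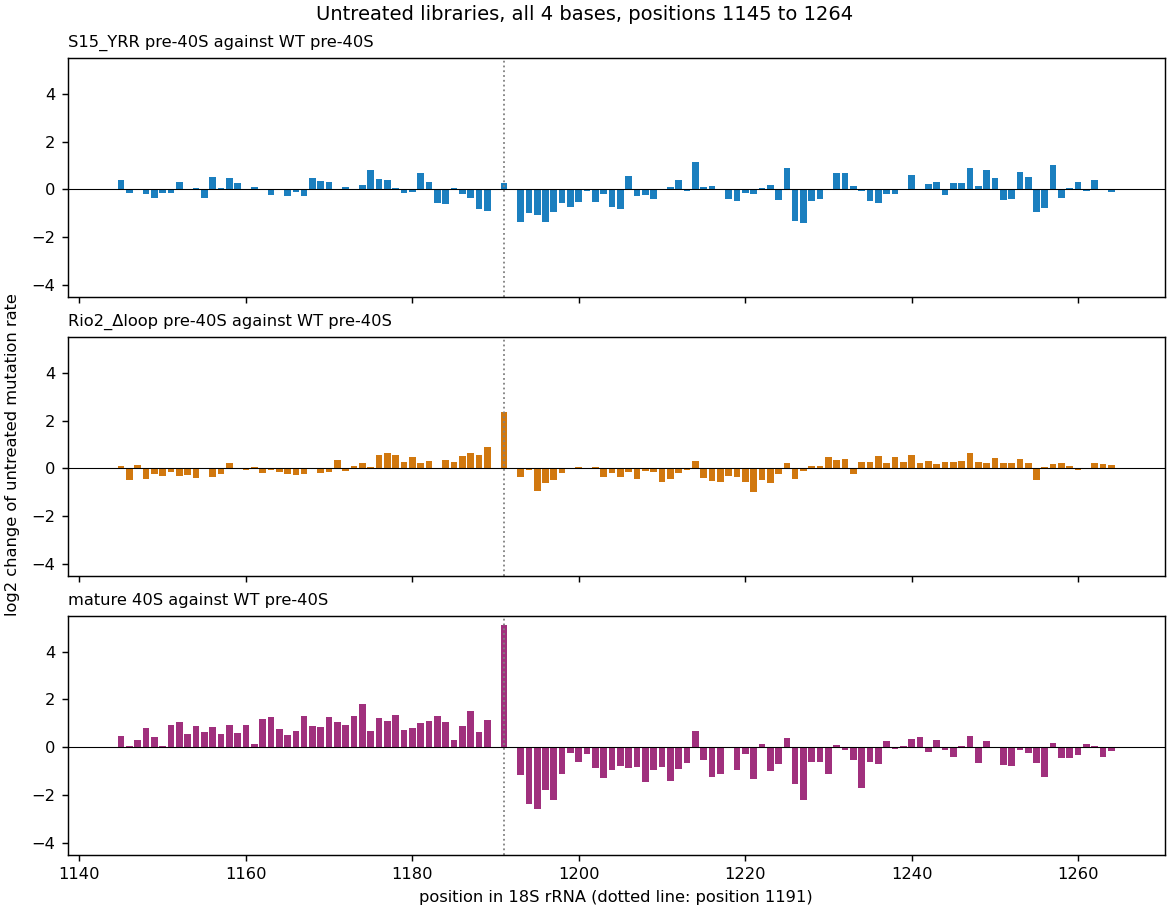
Log2 change of the untreated mutation rate against WT pre-40S (vertical axis) at each tested position of the stretch (horizontal axis), all 4 bases, in S15_YRR, Rio2_Δloop and mature 40S; the dotted line marks U1191. In mature 40S all 45 bars left of the line are above 0 and 55 of the 72 right of it are below 0.

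The mean untreated rate of the 5′ side divided by that of the 3′ side was 3.30, 1.61 and 1.75 in mature 40S replicates 1 to 3. The pre-40S ratios were all below these, at 0.799 to 1.04 (Rio2_Δloop), 0.718 to 0.833 (S15_YRR) and 0.689 to 0.909 (WT). Read depth changed beside the modified base as well. Effective depth from U1185 to A1189, just 5′ of U1191, was 20.5% ± 3.74 of the 18S mean of the same library in untreated mature 40S (SD, n = 3), 55.8% ± 3.68 in Rio2_Δloop (n = 4), 76.9% ± 5.41 in S15_YRR (n = 3) and 85.1% ± 23.1 in WT (n = 5). From A1193 to C1197, just 3′ of U1191, it was 32.9% ± 0.628, 56.8% ± 3.54, 82.8% ± 5.00 and 82.2% ± 31.9 in the same order. The 5′ means ordered the particles as the U1191 rate did, whereas on the 3′ side S15_YRR was not below WT. In Rio2_Δloop the depth was alike on both sides. The part of the depth or of the U1191 rate in the untreated step was not tested.

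The A and C next to U1191 rest on this depth. A1189 had scaled differences of -0.0349, 0.179 and 2.37 in mature 40S, at depths of 928 to 1443 reads in the mature libraries, and its mean there, 0.838 ± 1.33 (SD, n = 3), comes from replicate 3. The pre-40S means were 0.364 ± 0.253 in Rio2_Δloop (n = 4), 1.01 ± 0.409 in S15_YRR (n = 3) and 0.603 ± 0.708 in WT (n = 5). Every pair of particles overlapped except S15_YRR and Rio2_Δloop. A1193 had -0.00694 ± 0.116 in mature 40S (n = 3), 0.505 ± 0.172 in Rio2_Δloop (n = 4), 0.625 ± 0.105 in S15_YRR (n = 3) and 0.111 ± 0.335 in WT (n = 5). S15_YRR and Rio2_Δloop lay above mature 40S without overlap at this base, and S15_YRR above WT. A1194 had means of -0.000649, 0.260, 0.369 and 0.113 in the same order. The left-out neighbours had means of 0.485, 0.298, 0.920 and 0.641 at C1190 and -0.229, 0.365, 0.697 and 0.274 at C1192, again in this order, with SDs of 1.49 and 0.419 in mature 40S.

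Where the untreated rate moved, a ratio of DMS to untreated rate and a comparison of treated libraries gave different answers. At A1227 the DMS rate was 2.89% ± 0.657 in WT (SD, n = 5) and 3.07% ± 0.686 in mature 40S (n = 3), whereas the untreated rate was 0.674% ± 0.398 and 0.114% ± 0.0145. The edgeR interaction, which tests the DMS effect over the untreated rate, gave 2.48 for mature 40S against WT (adjusted p = 0.00253), beside the -0.02 of the treated libraries. At C1246, where untreated rates were close, both gave like values (2.37 and 2.07).

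Set beside the other parts of 18S, the stretch held few tested bases, and no test of a difference between regions was made. The share of A and C passing the filter on signal was 12.3% here and 13.6% in all of 18S. The median log2 change of the 7 members against WT was 0.39 in mature 40S, 0.14 in Rio2_Δloop and 0.09 in S15_YRR, and that of the 107 bases was 0.03, 0.00 and 0.03. The mean scaled difference of all members was 0.361 in mature 40S, 0.356 in Rio2_Δloop, 0.346 in S15_YRR and 0.146 in WT. Over all A and C of 18S it was 0.267, 0.283, 0.283 and 0.0751. Both WT means include replicate 1, whose unscaled mean difference over all A and C was -0.397 percentage points. In the other WT replicates that mean was 0.129 to 0.433. The WT values were not recomputed without replicate 1, so their distance from the other particles rests partly on that library. The median over members was 0.0603 in mature 40S, below the 0.0891 of all A and C, whereas in the pre-40S particles the medians of the stretch were above those of 18S.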

How the data were processed

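DMS and untreated libraries of 15 replicates were profiled. The authors deposited, per library and position, mutation counts, read depth and effective depth as counts and the mutation rate as a fraction; recomputed rates differed from it by at most 5e-07. A deposited table also gave a normalized DMS accessibility signal, used only as an alternative. The aligner, the counting software, filters and genome build are not given in the sources used here, and positions are on the rRNA. Pairs of DMS and untreated libraries come from the series' design text; within groups, deviations of the paired libraries correlated from 0.0728 to 0.702. Samples were grouped by the labels.

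Tests used edgeR 4.0.16 (robust quasi-likelihood, Benjamini-Hochberg, threshold 0.05) in R 4.3.3 on the counts, and alternatives used limma 3.58.1 and DESeq2 1.42.0. Median effective depth per library was 3339 to 19195 in the stretch; this limits counting error only. Positions entered the untreated test if their mean rate reached 0.001 (a fraction) and no library had under 900 reads. Library sets came from average linkage of log2 untreated rates (plus 0.0005 as a fraction) at 1 minus r of 0.3. The code of the fits was run on simulated counts with a fixed spread and no library sets or differences in library scale. That run therefore does not give the error rates of the fits on these libraries. Bases were named if called between particles, among the 5 highest of a particle, at the depth limit or within 3 bases of U1191, or called in the untreated comparison; C1159, C1195, C1197, A1202, A1204, C1235 and the other bases called only against untreated or under the looser filter were named after their values were seen. The members and lists were chosen with earlier results of these data known. Python 3.11.15, pandas 2.3.3, numpy 2.4.6, scipy 1.17.1 and matplotlib 3.10.9 were used for values and figures.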

Additional observations from a re-analysis of the deposited data

Results flagged for a closer look

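Among 16 groups of 4 or 5 replicates checked at the 7 tested bases and U1191, 2 held a replicate apart from the others, where chance gives about 1 in 20. C1148 in WT replicate 1 had a scaled difference of 0.202, against 0.960 to 1.18 in the other WT replicates. A1227 in Rio2_Δloop replicate 2 had 1.49, against 2.65 to 2.81 in the others.

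The DMS effect over the untreated rate differed between particles by an edgeR interaction at these bases, in log2 units. For Rio2_Δloop against WT the differences were 1.11 at A1217, 1.43 at A1219 and 1.46 at C1246. For mature 40S against WT they were -1.28 at A1147, -1.23 at C1148, 1.96 at A1217, 2.39 at A1219, 2.28 at A1226, 2.48 at A1227 and 2.37 at C1246. For mature 40S against S15_YRR they were -1.62 at C1148 and 1.49 at A1217. Adjusted p-values of these 12 differences ran from 3.08e-05 to 0.0333. A1226 and A1227 did not pass in the treated libraries alone.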

How the results depend on the processing

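No call of the main fits reversed under any alternative run. Calls made only under the looser filter on signal were not checked for this. Over the calls of the main fit between particles, 316 comparisons with an alternative stayed past the threshold and 44 did not. The numbers were 338 and 66 for DMS against untreated and 49 and 18 for untreated libraries. Called members moved by over 1.5 times as follows; fewer or more bases were tested under the filters by construction, and otherwise the cause was not tested. For S15_YRR against WT (1) they numbered 0 without the filter on signal and with the interaction, and 2 with the library set as a term and in set 1 alone. For Rio2_Δloop against WT (3) they numbered 1 without the filter, 6 at 1.5 times the untreated rate and 5 with the set term. For mature 40S against WT (5) they numbered 3 without a library scale, 17 without the filter and 10 at 1.5 times. For Rio2_Δloop against S15_YRR (1) they numbered 0 without a scale, with the scale from the 90th to 98th percentile, without the filter, with the interaction, with limma and with the deposited signal, and 2 in the fit of these particles alone and in sets 1 and 2, an alternative chosen after seeing the data. For mature 40S against S15_YRR (4) they numbered 13 without the filter, 9 at 1.5 times and 2 with the interaction. For mature 40S against Rio2_Δloop (2) they numbered 0 without a scale and with the interaction, 7 without the filter and at 1.5 times, 1 at a depth of 2000 and 4 with the set term.

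For DMS against untreated, WT (11) gave 7 without the replicate block of library pairs and in a fit of its libraries alone and 17 in sets 1 and 2, the latter added after seeing the data; Rio2_Δloop (13) gave 8 without the replicate block. Untreated calls in Rio2_Δloop against WT (1) numbered 0 without a scale and at a depth of 2000, which removes U1191, and in mature 40S against WT (4) they numbered 1 at a depth of 2000, 22 with the set term and 20 in set 1 alone. Replicate numbers did not pair the particles (correlations of same-numbered deviations from -0.332 to 0.304); with the number as replicate block the DMS counts stayed at 1, 3, 5, 1, 4 and 2, and the untreated S15_YRR count became 8, against 0. Leaving out 1 replicate gave 1 to 2, 3 to 3, 4 to 6, 0 to 1, 4 to 4 and 0 to 2 calls between particles in the order above, 7 to 16 (WT), 11 to 14 (S15_YRR), 7 to 11 (Rio2_Δloop) and 6 to 7 (mature 40S) for DMS against untreated, and 0 to 0 (S15_YRR), 0 to 1 (Rio2_Δloop) and 1 to 5 (mature 40S) for untreated libraries. Depth is lowest beside U1191, where it falls to 799 reads at C1192 and 831 at C1190.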
